A study of Mus musculus with 8 samples.

Results

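Hmgcs1, Sqle, Idi1, Fdft1, Lss, Srebf1, Srebf2 and Abca1 are genes of cholesterol synthesis, of its control by the SREBP transcription factors and of cholesterol efflux. They were chosen by gene symbol, and each matched 1 gene, so the values below are those of 8 of the 27179 genes in the deposited table. Levels are RPKM, the reads of a gene scaled by the length of its transcript and by the total reads of the library. All 8 passed the filter on low values, a mean of at least 0.5 RPKM over the libraries, and are among the 12605 genes tested.

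RNA was sequenced from CD4+ T cells of the spleens of mice aged 8 weeks, all of the strain C.Cg-Foxp3tm2Tch/J, which carries a fluorescent reporter at Foxp3. Cd offspring had parents whose drinking water held 10 ppm CdCl2 before and during mating, and for the dams until birth, and Ctr offspring had parents given unspiked water. The cells were enriched by negative selection and then sorted, and were lysed at once (Unstim) or kept for 16 h with beads that carry antibodies to CD3 and CD28 (Stim), which engage the T cell receptor and its costimulatory receptor. This gives 4 groups, Ctr_Unstim, Ctr_Stim, Cd_Unstim and Cd_Stim, with 2 libraries each, numbered 6 and 7. The labels do not say whether libraries with the same number share an animal, or that the libraries of a group came from separate animals, so the p-values measure the spread between these libraries. Values are given in the order library 6, library 7.

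The reads counted on genes were 17985243 and 16299663 in Ctr_Unstim and 15542732 and 19449725 in Ctr_Stim. In Cd_Unstim they were 19419451 and 20538306, and in Cd_Stim 21987821 and 25486791. At this depth Hmgcs1 rested on 1297 to 5661 reads a library, Idi1 on 204 to 1340 and Abca1 on 66 to 1094.

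Markers were read against the labelled cell type. Cd3e, the most abundant of 5 T cell genes by its mean over the 8 libraries, stood at 428 to 464 RPKM in unstimulated and 306 to 318 RPKM in stimulated libraries, and Cd4 at 289 to 315 and 212 to 227 RPKM. Of the CD8 T cell genes, Cd8a stayed at or under 0.160 RPKM, while Cd8b1 lay between 9.40 and 11.7 RPKM. The B cell gene Ms4a1 was at 0 in every library, and the 4 B cell genes, with Cd79a the most abundant, summed to between 3.12 and 4.89 RPKM. For control offspring the study describes the cells as conventional T cells lacking CD25, the product of Il2ra, a gate that removes most regulatory T cells. The 3 regulatory T cell genes summed to 12.7 to 17.2 RPKM in unstimulated and 45.9 to 55.4 RPKM in stimulated libraries, and most of that difference was Ctla4, a gene that activated T cells also express. Foxp3 lay between 4.48 and 5.08 RPKM in unstimulated and between 5.98 and 7.69 RPKM in stimulated libraries. Its log2 fold change was 0.41 in Ctr (adjusted p 0.014 by limma) and 0.68 in Cd (adjusted p 0.0011 by limma). Ikzf2 lay between 1.84 and 3.75 RPKM over the 8 libraries. Neither Foxp3 nor Ikzf2 reached the 2-fold change needed for a call of stimulation. Erythroid genes summed to at most 0.0960 RPKM and platelet genes to 0. The 5 activation genes, Il2ra, Il2, Cd69, Myc and Irf4, summed to 143 to 197 RPKM in unstimulated and 1121 to 1219 RPKM in stimulated libraries, so the stimulation labels and the levels go together in all 8.

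Cells make cholesterol from acetyl-CoA through mevalonate, isoprenoid units and squalene. When sterol in the endoplasmic reticulum runs low, SCAP carries the SREBP factors to the Golgi, where proteases release the part that enters the nucleus and turns on genes of sterol and fatty acid synthesis, and INSIG proteins hold SCAP back when sterol is plentiful. When oxysterols accumulate, the LXR receptors turn on efflux pumps such as ABCA1, and T cells that prepare to divide are known to shift this balance from efflux to synthesis.

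The first question was how each gene of the synthesis route responded to stimulation, in Ctr and in Cd offspring. Hmgcs1, whose enzyme condenses acetoacetyl-CoA and acetyl-CoA to HMG-CoA early in the route, stood at 23.5 and 24.2 RPKM in Ctr_Unstim and 77.4 and 66.3 RPKM in Ctr_Stim. In Cd offspring the Hmgcs1 levels were 24.6 and 27.9 RPKM unstimulated and 71.1 and 67.7 RPKM stimulated. The 4 stimulated libraries were all above the 4 unstimulated ones, and the widest gap between libraries of a group was in Ctr_Stim. The log2 fold change of Hmgcs1 was 1.58 (SE 0.088, adjusted p 3.9e-06) in Ctr and 1.40 (SE 0.088, adjusted p 7.4e-06) in Cd.

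Idi1, which isomerises isopentenyl diphosphate and so balances the 5-carbon units from which farnesyl diphosphate is built, had 4.56 and 4.37 RPKM in Ctr_Unstim and 21.2 and 18.1 RPKM in Ctr_Stim. In Cd offspring it had 5.35 and 6.05 RPKM unstimulated and 19.3 and 18.3 RPKM stimulated. Stimulated and unstimulated libraries did not overlap, and the 4 unstimulated libraries split by exposure, with both Cd libraries above both Ctr libraries. Idi1 rose by 2.11 on the log2 scale (SE 0.10, adjusted p 1.9e-06) in Ctr, or 4.40-fold as a ratio of mean RPKM, and by 1.71 (SE 0.10, adjusted p 5.1e-06) in Cd, or 3.31-fold.

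Fdft1 encodes squalene synthase, which joins 2 farnesyl diphosphates in the first step that leads only to sterols. It was at 11.2 and 11 RPKM in Ctr_Unstim, 16.1 and 15.1 RPKM in Ctr_Stim, 11.1 and 10.7 RPKM in Cd_Unstim and 16.1 and 15.7 RPKM in Cd_Stim. All stimulated libraries were above all unstimulated ones, by a smaller margin than for the genes above. Fdft1 had a log2 fold change of 0.49 (adjusted p 2.8e-04) in Ctr and 0.54 (adjusted p 1.7e-04) in Cd, which is under 2-fold, so it was not called by the rule for stimulation (adjusted p under 0.01 and more than 2-fold).

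Sqle encodes squalene epoxidase, an oxygen-dependent step on the way to lanosterol. Its levels were 12.7 and 11.7 RPKM in Ctr_Unstim and 36.4 and 35.1 RPKM in Ctr_Stim, then 11.8 and 13.2 RPKM in Cd_Unstim and 35.1 and 34.4 RPKM in Cd_Stim. The levels of Cd and Ctr interleaved in unstimulated cells, and every stimulated library stood above every unstimulated one. Sqle rose by 1.54 on the log2 scale (SE 0.074, adjusted p 2.0e-06) in Ctr and by 1.47 (SE 0.074, adjusted p 2.6e-06) in Cd.

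Lss, lanosterol synthase, closes the ring system of the sterol. It was at 6.99 and 5.85 RPKM in Ctr_Unstim, 11.5 and 11 RPKM in Ctr_Stim, 7.02 and 6.07 RPKM in Cd_Unstim and 10.6 and 10.3 RPKM in Cd_Stim. In both exposures library 6 was the higher of the unstimulated pair, and no unstimulated library reached a stimulated one. The log2 fold change of Lss was 0.81 (SE 0.11, adjusted p 3.7e-04) in Ctr and 0.67 (SE 0.11, adjusted p 0.0011) in Cd, again under 2-fold.

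**Figure D1:**
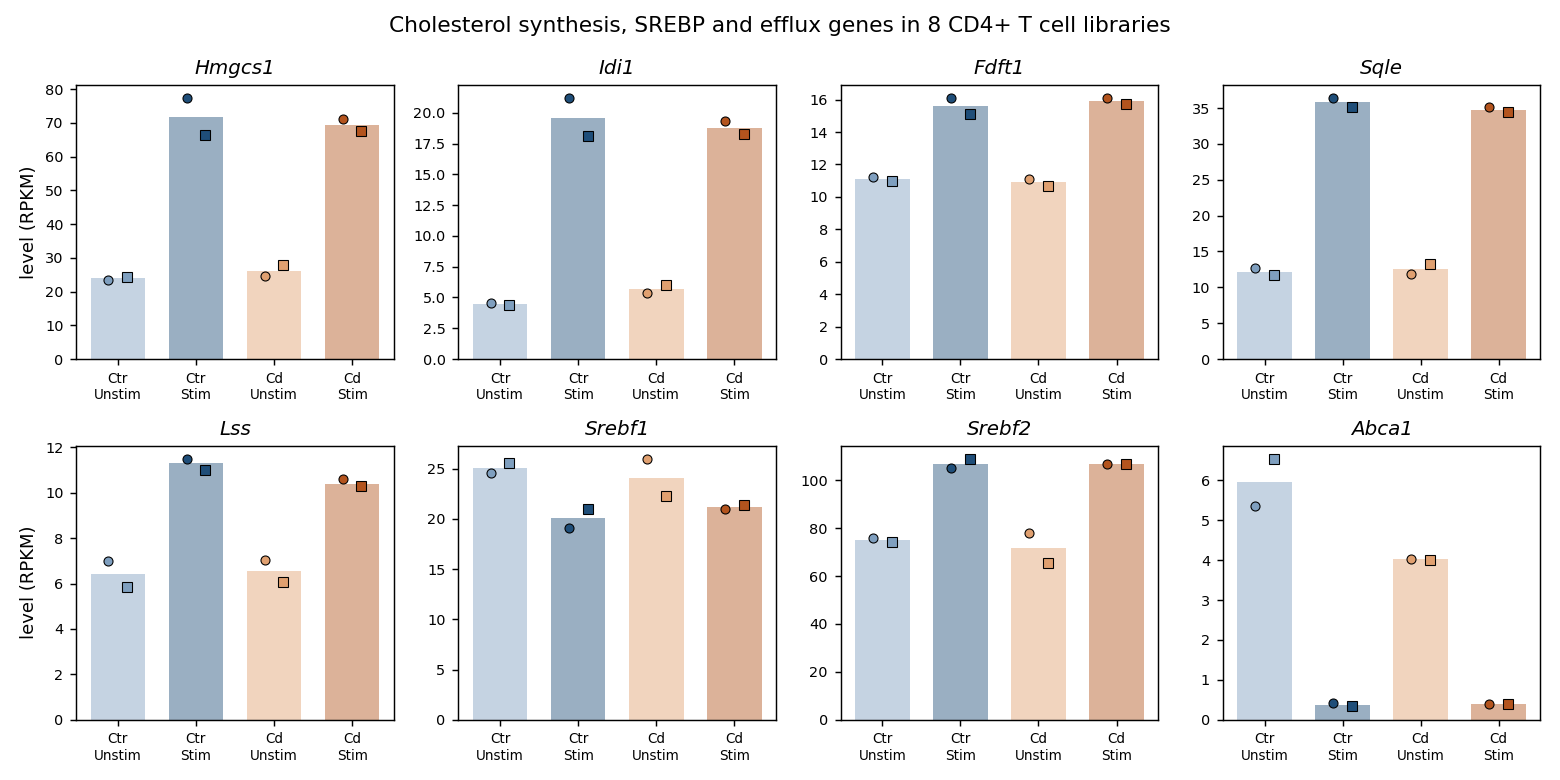
Level of each gene in RPKM on a linear axis from 0, by group; bars are group means, circles library 6 and squares library 7. Hmgcs1, Idi1 and Sqle stand higher in all 4 stimulated libraries, Abca1 lies between 4.01 and 6.54 RPKM in unstimulated and between 0.351 and 0.414 RPKM in stimulated libraries, and Srebf1 and Srebf2 differ by less than 2-fold.

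Over the 8 genes, limma called 3 higher (Hmgcs1, Sqle and Idi1) and 1 lower (Abca1) in Ctr, where 11.5% of all genes tested were called higher and 7.17% lower. In Cd the same 3 were called higher and Abca1 lower, beside 11.4% and 7.24% of all genes tested. At an adjusted p under 0.05 with any fold, 6 of the 8 were higher and 2 lower in Ctr, where the shares of all genes were 36.9% and 27.8%. By that rule 6 were higher and 1 lower in Cd, where the shares were 36.5% and 29.4%. The libraries of the compared groups did not overlap for any of the 8 genes in either exposure, with 6 higher and 2 lower in both, a pattern that 46.0% and 37.2% of all genes tested showed in Ctr and 44.7% and 38.4% in Cd. Scaling by quantile normalization moved the median of all genes by −0.10 in Ctr on the log2 scale, and all 8 genes kept their sign under it, under median-of-ratios scaling and by limma voom.

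The list of enzymes between acetyl-CoA and cholesterol places these genes in the route. It includes the 5 above, Hmgcs1, Idi1, Fdft1, Sqle and Lss, of which 3 were called higher in each exposure. Of 20 enzymes, all tested, 7 were called higher and 0 lower in Ctr, beside 11.5% and 7.17% of all genes tested, and 8 higher and 0 lower in Cd, beside 11.4% and 7.24%. Limma voom gave the same numbers for the 20, and over all genes tested it called 11.9% higher and 7.34% lower in Ctr and 11.9% and 7.86% in Cd. At an unadjusted p under 0.05, 15 of the 20 differed in either direction in Ctr and 14 in Cd, near the shares of all genes tested under that rule, 67.8% in Ctr and 69.0% in Cd. By direction, at an adjusted p under 0.05 by limma with any fold, 14 of the 20 were higher and 1 lower in Ctr. The shares of all genes tested were 36.9% and 27.8%. In Cd 14 were higher and 0 lower, where the shares were 36.5% and 29.4%. The median log2 fold change of the 20 was 0.86 in Ctr and 0.65 in Cd, beside 0.07 and 0.05 over all genes tested. Their summed level was 239 and 231 RPKM in Ctr_Unstim and 469 and 440 RPKM in Ctr_Stim, and Hmgcs1 was the most abundant of them on average. In Cd offspring the sum was 245 and 246 RPKM unstimulated and 450 and 443 RPKM stimulated.

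Cyp51, the lanosterol demethylase that acts just after Lss, had the highest fold change of the enzymes outside the 8 genes. Its levels were 13.0 and 12.1 RPKM in Ctr_Unstim, 51.7 and 46.9 RPKM in Ctr_Stim, 13.2 and 14.1 RPKM in Cd_Unstim and 50 and 47.5 RPKM in Cd_Stim, with log2 fold changes of 1.96 in Ctr and 1.83 in Cd. Hsd17b7, a ketoreductase of the later steps, rose by 1.56 in Ctr and 1.5 in Cd. Pmvk, phosphomevalonate kinase, rose by 1.20 in Cd. In Ctr the log2 fold change of Pmvk was 1.01, a call that ended without library 7 of Ctr_Unstim (1.0) or library 6 of Ctr_Stim (0.99), at pseudocounts of 0.5 (0.97) and 1 (0.92), and under median-of-ratios scaling (0.93) and quantile normalization (0.90). Fdps, farnesyl diphosphate synthase just before Fdft1, was called in Cd only, at 1.10 against 0.91 in Ctr, and quantile normalization brought it to 0.99 in Cd. The difference between the exposures for Fdps and Pmvk was not called, as given with the difference in response below.

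Enzymes that were not called did not all lie near 0. Msmo1 had log2 fold changes of 0.96 in Ctr and 0.63 in Cd, and Sc5d had 0.45 and 0.30. Each of these had an adjusted p under 0.01 by limma but was under 2-fold. Acat2, which makes acetoacetyl-CoA, lay near 0, at −0.01 in Ctr and 0.09 in Cd. Dhcr7, the last reductase of one branch, had −0.11 and −0.16. The genes of this paragraph were chosen after their values were seen.

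Srebf2 encodes SREBP2, the factor known mainly for sterol synthesis genes. Its levels were 76.0 and 74.1 RPKM in Ctr_Unstim, 105 and 109 RPKM in Ctr_Stim, 77.9 and 65.6 RPKM in Cd_Unstim and 107 and 107 RPKM in Cd_Stim. Stimulated libraries were above unstimulated ones, with library 7 of Cd_Unstim the lowest of the 8. Srebf2 had a log2 fold change of 0.51 (SE 0.077, adjusted p 6.9e-04) in Ctr and 0.58 (SE 0.077, adjusted p 3.5e-04) in Cd, under 2-fold in both.

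Srebf1 encodes the SREBP1 isoforms, known more for fatty acid synthesis genes, and the values are sums over its transcripts. It had 24.6 and 25.6 RPKM in Ctr_Unstim, 19.1 and 21.0 RPKM in Ctr_Stim, 26.0 and 22.3 RPKM in Cd_Unstim and 21.0 and 21.4 RPKM in Cd_Stim. The stimulated libraries were all at or under 21.4 RPKM and the unstimulated ones at or above 22.3 RPKM, a narrow gap. The log2 fold change of Srebf1 was −0.32 (SE 0.084, adjusted p 0.011) in Ctr and −0.18 (SE 0.084, adjusted p 0.090) in Cd. The Cd value was −0.07 without library 6 and −0.29 without library 7 of Cd_Unstim. The ratio of Srebf2 to Srebf1 in RPKM lay between 2.90 and 3.09 in the unstimulated libraries and between 5.01 and 5.51 in the stimulated ones.

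Among the 7 genes of SREBP and its control, limma called 0 in either exposure. At an unadjusted p under 0.05 all 7 differed in Ctr and 6 in Cd, beside 67.8% and 69.0% of all genes tested, and limma voom called 0 in both. Their median log2 fold change was 0.50 in Ctr and 0.36 in Cd. Scap, the sterol sensor, had 0.37 in Ctr and 0.36 in Cd, and Insig1, which retains SCAP, 0.50 and 0.45. Insig2 had 0.61 in Ctr and 0.32 in Cd. The 2 proteases that release SREBP moved to opposite sides of 0, with Mbtps1 at −0.47 and −0.44 and Mbtps2 at 0.63 and 0.50. These 5 genes were chosen after their values were seen, as the rest of the list.

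Abca1 encodes the pump that hands cellular cholesterol and phospholipid to apolipoprotein A-I. It stood at 5.35 and 6.54 RPKM in Ctr_Unstim, 0.414 and 0.351 RPKM in Ctr_Stim, 4.04 and 4.01 RPKM in Cd_Unstim and 0.399 and 0.398 RPKM in Cd_Stim. The reads behind these levels were 988 and 1094, 66 and 70, 805 and 844, and 90 and 104. No stimulated library came near an unstimulated one, and in unstimulated cells both Cd libraries were below both Ctr libraries. Abca1 fell by 3.64 on the log2 scale (SE 0.17, adjusted p 1.8e-06) in Ctr and by 3.05 (SE 0.17, adjusted p 4.0e-06) in Cd. As ratios of mean RPKM the unstimulated groups were 15.6-fold higher in Ctr and 10.1-fold higher in Cd. With a pseudocount of 1 RPKM the log2 fold change of Abca1 was −2.32 in Ctr and −1.84 in Cd, still called in both.

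Macrophages express Abca1 strongly, so markers of other cells are set beside it. The 5 myeloid genes, Lyz2, Csf1r, Itgam, Cd68 and Adgre1, summed to 6.23 and 6.62 RPKM in Ctr_Unstim, 3.21 and 3.50 RPKM in Ctr_Stim, 7.83 and 7.58 RPKM in Cd_Unstim and 4.31 and 3.26 RPKM in Cd_Stim. Cd68 was the most abundant, while Lyz2 had at most 1 read and Adgre1 at most 3 reads in any library. Itgam was called lower with stimulation, at −2.27 in Ctr and −2.03 in Cd, and was chosen after its values were seen. In unstimulated cells, where Abca1 was lower in Cd than in Ctr, the myeloid sum was higher in Cd, with Cd68 at 5.77 and 5.70 RPKM in Cd and 4.25 and 4.63 RPKM in Ctr. Itgam was lower in Cd, at 1.66 and 1.56 RPKM against 1.85 and 1.74 RPKM, and so was the NK cell gene Klrb1c, at 3.15 and 4.25 RPKM against 4.35 and 4.29 RPKM. The 2 NK cell genes summed to between 3.15 and 4.35 RPKM in unstimulated and between 0.147 and 0.293 RPKM in stimulated libraries, nearly all from Klrb1c, with Ncr1 at 0 in all libraries but 1. The part of these cells in the level of Abca1 was not tested, and in bulk RNA fewer cells of a type cannot be told apart from less RNA per cell.

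Abca1 is one of 8 genes listed as LXR factors, LXR targets and efflux genes, of which 0 were called higher and 3 lower in each exposure, beside 7.17% of all genes tested called lower in Ctr and 7.24% in Cd. Limma voom gave the same numbers, and 6 of the 8 had an unadjusted p under 0.05 in each, beside 67.8% of all genes tested in Ctr and 69.0% in Cd. Mylip, an LXR target that encodes a ubiquitin ligase, was at 33.1 and 37.0 RPKM in Ctr_Unstim, 7.2 and 6.95 RPKM in Ctr_Stim, 33.8 and 33.8 RPKM in Cd_Unstim and 8.00 and 7.37 RPKM in Cd_Stim. Mylip fell by 2.29 in Ctr and by 2.13 in Cd on the log2 scale, with no overlap between stimulated and unstimulated libraries. The third called gene, Abcg1, an efflux pump chosen after its values were seen, stood at 30.6 and 32.3 RPKM in Ctr_Unstim, 7.07 and 6.65 RPKM in Ctr_Stim, 29.3 and 26.4 RPKM in Cd_Unstim and 7.12 and 6.75 RPKM in Cd_Stim. Its log2 fold changes were −2.18 in Ctr and −1.99 in Cd, so that Abcg1 exceeded Abca1 in RPKM by 4.93-fold to 7.25-fold in unstimulated and 17.0-fold or more in stimulated libraries.

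The LXR receptors themselves differed in level. Nr1h2, which encodes LXRβ, stood at 42.1 to 52.1 RPKM over the 8 libraries with log2 fold changes of −0.03 in Ctr and −0.02 in Cd. Nr1h3, which encodes LXRα, lay between 0.348 and 0.741 RPKM and had log2 fold changes of −0.58 (adjusted p 0.090) in Ctr and −0.32 (adjusted p 0.31) in Cd. Lpcat3, an LXR target that remodels phospholipids, had 0.48 in Ctr and 0.68 in Cd, so the listed targets did not share 1 direction. These 3 genes were chosen after their values were seen. The median log2 fold change of the 8 was −0.57 in Ctr and −0.36 in Cd.

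**Figure D2:**
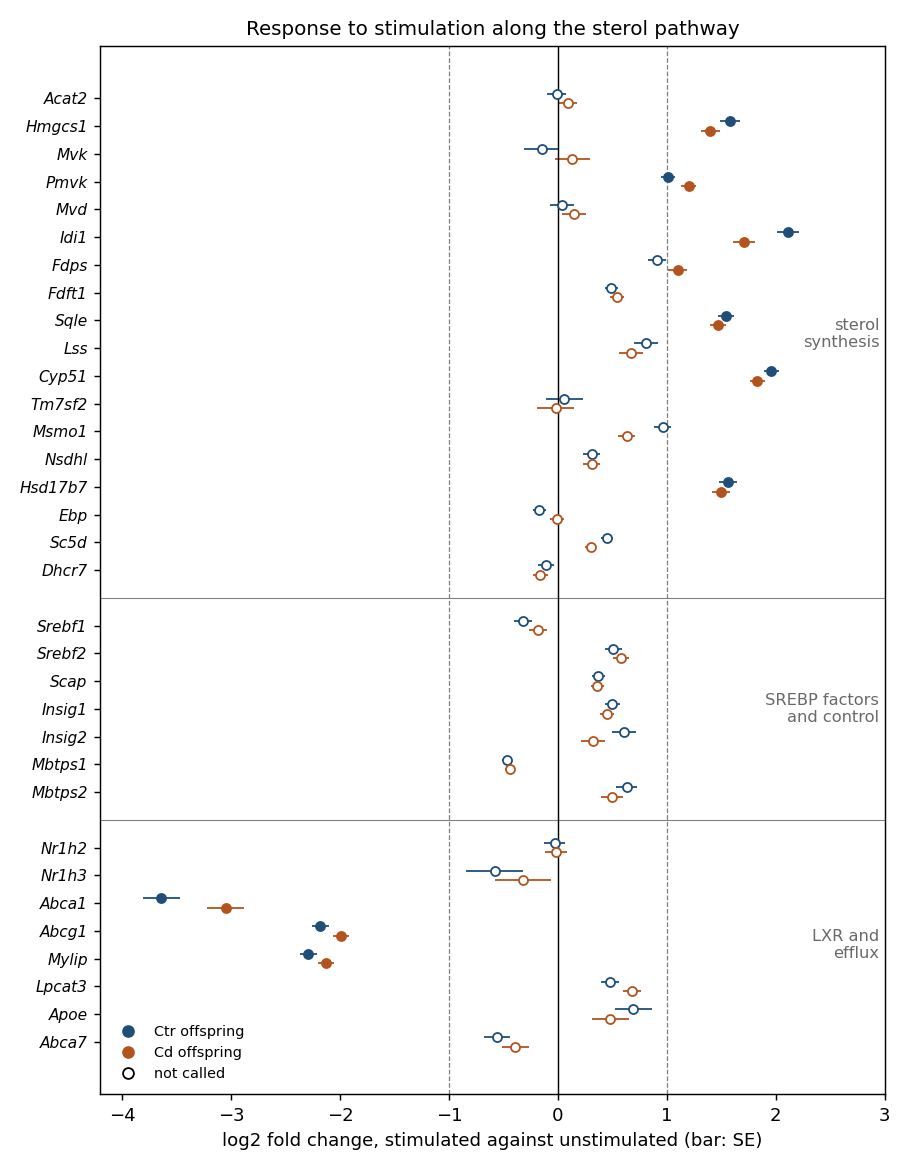
Log2 fold change of stimulated against unstimulated cells (horizontal axis, bars SE of the limma fit) for sterol synthesis enzymes in route order, the SREBP genes and the LXR and efflux genes, in Ctr and in Cd. Filled points passed the adjusted p and 2-fold thresholds (dashed lines at 2-fold), with Idi1 at 2.11 in Ctr the highest shown and Abca1 at −3.64 in Ctr the lowest.

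Of 7 genes for the uptake and movement of sterol inside the cell, 2 were called higher and 2 lower in Ctr, beside 11.5% and 7.17% of all genes tested. In Cd 1 was called higher and 2 lower, beside 11.4% and 7.24%. Scarb1, the receptor that takes up cholesterol ester from HDL, had 2.83 and 3.0 RPKM in Ctr_Unstim, 15.2 and 15.0 RPKM in Ctr_Stim, 3.07 and 3.03 RPKM in Cd_Unstim and 13.7 and 15.9 RPKM in Cd_Stim. Scarb1 rose by 2.34 in Ctr and 2.23 in Cd on the log2 scale, more than any of the 8 genes. Stard4, which carries sterol between membranes, rose by 1.11 in Ctr, or by 0.98 and no longer called under quantile normalization, and had 0.97 in Cd. The lysosomal genes stood lower after stimulation, Lipa, the acid lipase that frees cholesterol from LDL, by −1.06 in Ctr and −1.09 in Cd, and Npc2, which passes that cholesterol on, by −1.10 in Ctr and −0.93 in Cd. Npc2 was not called in Cd.

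Fatty acid synthesis genes, known as SREBP1 targets, were 13 in the list and 9 of them were tested. In Ctr 1 was called higher and 2 lower (11.5% and 7.17% of all genes tested), and in Cd 1 higher and 1 lower (11.4% and 7.24%), so the count called higher was near the share of all genes. The median log2 fold change of the 9 was 0.37 in Ctr and 0.23 in Cd. Acaca, acetyl-CoA carboxylase, went from 3.18 and 3.55 RPKM to 9.35 and 9.36 RPKM in Ctr and from 3.05 and 3.19 RPKM to 9.29 and 9.54 RPKM in Cd, log2 fold changes of 1.45 and 1.56. Acss2, which makes acetyl-CoA from acetate, was at 32.0 and 30.8 RPKM in Ctr_Unstim, 10.5 and 11.2 RPKM in Ctr_Stim, 30.7 and 29.3 RPKM in Cd_Unstim and 13.4 and 12.9 RPKM in Cd_Stim. Acss2 fell by 1.53 in Ctr and by 1.18 in Cd, opposite in direction to Acaca. Lpin1, a phosphatidate phosphatase, fell by 1.0 in Ctr and had −0.92 in Cd. The Ctr call of Lpin1 ended without library 7 of Ctr_Unstim (−0.97) or library 6 of Ctr_Stim (−0.98) and at pseudocounts of 0.5 (−0.96) and 1 (−0.91).

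In the list of sterol esterification and oxysterol genes 3 of 7 were tested, and 1 was called higher in each exposure, beside 11.5% of all genes tested in Ctr and 11.4% in Cd. That gene was Sult2b1, a sterol sulfotransferase, at 1.96 and 2.05 RPKM in Ctr_Unstim, 4.64 and 5.75 RPKM in Ctr_Stim, 2.27 and 1.29 RPKM in Cd_Unstim and 6.01 and 5.84 RPKM in Cd_Stim. Sult2b1 had log2 fold changes of 1.32 in Ctr and 1.73 in Cd. The Ctr call of Sult2b1 ended without library 6 of Ctr_Unstim (1.29, adjusted p 0.013), library 7 of Ctr_Unstim (1.36, adjusted p 0.011) or library 7 of Ctr_Stim (1.17, adjusted p 0.015). Of 6 genes of the isoprenoid branch, limma called 0 in either exposure, 4 had an unadjusted p under 0.05 in each, beside 67.8% of all genes tested in Ctr and 69.0% in Cd, and limma voom called 0. Over all lists, 60 of 68 genes were tested, and 11 were called higher and 7 lower in Ctr, where the shares of all genes tested were 11.5% and 7.17%. In Cd 11 were called higher and 6 lower, where the shares were 11.4% and 7.24%.

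Whether parental Cd changed these genes was asked in unstimulated and in stimulated cells apart, at an adjusted p under 0.05. In unstimulated cells limma called 0 of the 8, where 0.896% of all genes tested were called. At an unadjusted p under 0.05 there were 2 of the 8, Idi1 and Abca1, beside 13.9% of all genes tested. Limma voom called 1 of the 8, Abca1, beside 1.67% of all genes tested. Idi1 had a mean of 5.70 RPKM in Cd_Unstim and 4.46 RPKM in Ctr_Unstim, a log2 fold change of 0.34 (95% interval 0.11 to 0.58, adjusted p 0.21 by limma). Abca1 had means of 4.02 and 5.95 RPKM, a log2 fold change of −0.55 (95% interval −0.94 to −0.15, adjusted p 0.23 by limma). By limma voom the value for Abca1 was −0.55 with an adjusted p of 0.0049, and without 1 library the limma value was between −0.69 and −0.40 with no call.

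For the other 6 genes in unstimulated cells the log2 fold change of Cd against Ctr was 0.13 for Hmgcs1 (95% interval −0.07 to 0.34), 0.03 for Sqle (−0.14 to 0.21) and 0.03 for Lss (−0.22 to 0.28). It was −0.02 for Fdft1 (−0.17 to 0.12), −0.06 for Srebf1 (−0.26 to 0.14) and −0.07 for Srebf2 (−0.25 to 0.11). Hmgcs1 was higher in both Cd libraries than in both Ctr libraries, but its value was 0.04 without library 7 and 0.22 without library 6 of Cd_Unstim. The libraries of the other 5 overlapped. The sign changed without 1 library for Sqle (−0.05 without library 7 of Cd_Unstim, −0.03 without library 7 of Ctr_Unstim), Lss (−0.07 without library 6 of Cd_Unstim, −0.10 without library 7 of Ctr_Unstim), Srebf1 (0.05) and Srebf2 (0.05), these last and Fdft1 (0.00) without library 7 of Cd_Unstim. A p that misses the threshold does not show that levels were equal, and the intervals give the differences these libraries allow.

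Of the 60 pathway genes tested, limma called 0 in unstimulated Cd cells against Ctr, limma voom called 1 (Abca1), which is the 1.67% it called over all genes tested, and 7 had an unadjusted p under 0.05, where 13.9% of all genes tested did, so the count is no larger than that share gives. They included Idi1 and Abca1, given above, and the enzymes Msmo1 at 0.24, Sc5d at 0.13 and Pmvk at −0.22. Npc2 had −0.18. Msmo1, Sc5d, Pmvk and Npc2 were chosen after their values were seen. In the same comparison the 5 activation genes summed to 162 and 143 RPKM in Cd_Unstim and 197 and 173 RPKM in Ctr_Unstim. Il2 was called lower in Cd, at −0.86 (adjusted p 0.041 by limma), on 5 and 6 reads against 12 and 8 in Ctr. Cd69 had −0.39 (adjusted p 0.079 by limma), Irf4 −0.06, Myc 0.09 and Il2ra 0.14. Their part in the levels of Abca1 and Idi1 was not tested.

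In stimulated cells limma called 0 of the 8 between Cd and Ctr, where 0% of all genes tested were called. None of the 8 had an unadjusted p under 0.05, beside 3.28% of all genes tested, and limma voom called 0 of the 8 and 0% of all genes tested. Their log2 fold changes lay between −0.11 (Lss) and 0.08 (Srebf1), and their 95% intervals lay within −0.36 and 0.44. Abca1, which differed most in unstimulated cells, had 0.05 (95% interval −0.34 to 0.44) on means of 0.398 and 0.382 RPKM, and Idi1 had −0.06 (95% interval −0.29 to 0.18). Without library 6 of Ctr_Stim the sign changed for Hmgcs1 (0.06) and Idi1 (0.06), and without library 7 of Ctr_Stim for Fdft1 (−0.02), Srebf2 (0.02) and Abca1 (−0.04). The sign also changed for Srebf2 under median-of-ratios scaling (0.01) and quantile normalization (0.01) and for Abca1 under the latter (−0.02). Of the 60 pathway genes limma and limma voom called 0, and 1 had an unadjusted p under 0.05, where 3.28% of all genes tested did. That gene was Acss2, chosen after its values were seen, at 0.28 (adjusted p 0.89 by limma), with both Cd_Stim libraries above both Ctr_Stim libraries.

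The difference in response is the log2 fold change of stimulation in Cd minus that in Ctr, and it uses the libraries of the comparisons above. Limma called 0 of the 8 at an adjusted p under 0.05, where 0.357% of all genes tested were called, and limma voom called 0 of the 8 and 0.881% of all genes tested. At an unadjusted p under 0.05 there were 2 of the 8, beside 10.6% of all genes tested. Idi1 had a difference of −0.40 (95% interval −0.73 to −0.07, adjusted p 0.39 by limma), with responses of 2.11 in Ctr and 1.71 in Cd. Abca1 had a difference of 0.60 (95% interval 0.04 to 1.15, adjusted p 0.44 by limma), with responses of −3.64 and −3.05. For both genes the exposures lay apart in unstimulated libraries and overlapped in stimulated ones.

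For the other 6 genes the difference in response was −0.18 for Hmgcs1, −0.14 for Lss, −0.08 for Sqle, 0.05 for Fdft1, 0.07 for Srebf2 and 0.14 for Srebf1, and each 95% interval included 0. With 1 library left out these values ran from −0.29 to −0.07 for Hmgcs1 (without library 7 or 6 of Ctr_Stim), −0.27 to −0.01 for Lss (without library 6 or 7 of Ctr_Unstim) and 0.00 to 0.09 for Fdft1 (without library 7 or 6 of Ctr_Stim). They ran from 0.03 to 0.25 for Srebf1 and −0.05 to 0.19 for Srebf2 (without library 7 or 6 of Cd_Unstim). For Sqle they ran from −0.16 to 0.01 (without library 6 or 7 of Cd_Unstim). Of the 60 pathway genes limma and limma voom called 0, and 4 had an unadjusted p under 0.05, where 10.6% of all genes tested did, so the count is no larger than that share gives. The 4 were Idi1, Abca1, Msmo1 at −0.33 and Acss2 at 0.35. Msmo1 and Acss2 were chosen after their values were seen, and their adjusted p by limma was 0.37 and 0.22. Pmvk had a difference of 0.19 (95% interval −0.03 to 0.42) and Fdps 0.18 (95% interval −0.10 to 0.46), neither called.

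Ordered by mean RPKM, Srebf2 was the highest of the 8 genes in each group, at 75.1 RPKM in Ctr_Unstim and 71.7 RPKM in Cd_Unstim and 107 RPKM in both stimulated groups. In Ctr_Unstim Srebf1 (25.1 RPKM), Hmgcs1 (23.9 RPKM), Sqle (12.2 RPKM), Fdft1 (11.1 RPKM), Lss (6.42 RPKM), Abca1 (5.95 RPKM) and Idi1 (4.46 RPKM) followed, and of these neighbours Lss and Abca1 overlapped. In Cd_Unstim Hmgcs1 and Srebf1 overlapped at means of 26.2 and 24.1 RPKM, and Abca1, at 4.02 RPKM, was below Idi1, at 5.70 RPKM. After stimulation Hmgcs1 stood second in Ctr at 71.9 ± 7.88 RPKM (SD, n = 2) and in Cd at 69.4 ± 2.41 RPKM (SD, n = 2). Sqle followed it at 35.8 and 34.7 RPKM. Idi1 had moved above Fdft1 and Lss and overlapped with Srebf1 in Ctr_Stim, and Abca1 was last in both stimulated groups. The ratio of Hmgcs1 to Abca1 in RPKM was 3.71 to 6.96 in unstimulated and 170 to 189 in stimulated libraries.

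Genes outside the pathway lists were ranked by Pearson correlation of log2 levels over the 8 libraries, which form a stimulated and an unstimulated cluster. The mean profile of Hmgcs1, Sqle, Idi1, Fdft1 and Lss was most like those of Ado, Cct2 and Plaa, each with r at or above 0.999. For Srebf1 the nearest were Zfp526 (r 0.992), Atg2a (r 0.990) and Foxo3 (r 0.989), and for Srebf2 they were Lzts2, Raver1 and Mlf2, each with r 0.998. Abca1 was most like Nsmce1 (r 0.999), Arid5a (r 0.999) and Kbtbd2 (r 0.998). Like Srebf1, Foxo3 was lower in library 7 than in library 6 of Cd_Unstim, at 20.7 and 24.9 RPKM.

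The 8 genes lie on 6 chromosomes in GRCm38.p6, with Hmgcs1 and Idi1 on chromosome 13 and Sqle and Srebf2 on chromosome 15. Fdft1 (chr14:63145150-63181687, minus strand) shares 774 exonic bases at its end with Ctsb on the plus strand, and Srebf1 (chr11:60199084-60224186, minus strand) shares 109 exonic bases with Rai1. Ctsb had log2 fold changes of −0.38 in Ctr and −0.37 in Cd, opposite in sign to Fdft1, and Rai1 0.03 and 0.14. Lss (chr10:76531565-76557139, plus strand) shares 381 exonic bases with the lncRNA gene 4930483K19Rik, which lay between 0.496 and 1.68 RPKM. Whether reads were assigned by strand is not given in the sources used here. Mir33, a miRNA known to target Abca1, lies in an intron of Srebf2 at chr15:82198122-82198190, and its own entry held 0 to 3 reads a library, too few for a comparison.

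Promoter windows of 300 bases, from 250 bases before to 50 bases after a gene's start in RefSeq (GRCm38.p6), were held for 6 of the 8 genes, in 8 windows, 3 of them for Srebf1. They were searched on both strands for a sterol element TCACNCCAC, a GC box GGGCGG and a CCAAT box CCAAT, and no base fell in matches of more than 1 motif. Of 32851 windows of this length, 1.24% held the sterol element, 35.7% the GC box and 37.4% the CCAAT box. Hmgcs1 held the sterol element, at 137 bases before its start, with 3 GC boxes and 4 CCAAT boxes. The windows of Idi1 (1 GC box, 2 CCAAT boxes), Lss (2 and 1), Srebf2 (5 and 1) and Abca1 (2 and 0) held no sterol element, nor did those of Srebf1. Cyp51, called in both exposures, had 1 GC box and 1 CCAAT box. Only exact matches to these letters were counted, so a window without a match can still hold a near match. A match is a description of the letters, not a site or a cause.

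The windows of Hmgcs1 (chr13:119690101-119690400, plus strand) and Idi1 (chr13:8885356-8885655, plus strand) are printed as those of the enzymes that rose, Srebf2 (chr15:82147019-82147318, plus strand) as that of the factor, and Abca1 (chr4:53159846-53160145, minus strand) as that of the gene that fell. Each runs 5′ to 3′ on the gene's strand, with matches in capitals. The GC content was 65.7% for Hmgcs1, 52.3% for Idi1, 68.7% for Srebf2 and 62.7% for Abca1, beside a median of 52.7% over all windows.
Hmgcs1: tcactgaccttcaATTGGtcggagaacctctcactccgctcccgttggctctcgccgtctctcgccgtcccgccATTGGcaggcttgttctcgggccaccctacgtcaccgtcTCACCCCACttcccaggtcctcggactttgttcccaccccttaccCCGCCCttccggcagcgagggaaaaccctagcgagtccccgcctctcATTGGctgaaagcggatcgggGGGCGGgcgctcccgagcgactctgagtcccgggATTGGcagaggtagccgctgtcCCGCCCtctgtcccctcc
Idi1: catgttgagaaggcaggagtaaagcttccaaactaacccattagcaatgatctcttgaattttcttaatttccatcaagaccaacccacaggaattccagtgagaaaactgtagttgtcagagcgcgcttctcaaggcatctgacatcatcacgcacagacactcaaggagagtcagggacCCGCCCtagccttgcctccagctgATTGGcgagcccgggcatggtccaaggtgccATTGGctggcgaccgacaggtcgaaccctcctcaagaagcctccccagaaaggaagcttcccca
Srebf2: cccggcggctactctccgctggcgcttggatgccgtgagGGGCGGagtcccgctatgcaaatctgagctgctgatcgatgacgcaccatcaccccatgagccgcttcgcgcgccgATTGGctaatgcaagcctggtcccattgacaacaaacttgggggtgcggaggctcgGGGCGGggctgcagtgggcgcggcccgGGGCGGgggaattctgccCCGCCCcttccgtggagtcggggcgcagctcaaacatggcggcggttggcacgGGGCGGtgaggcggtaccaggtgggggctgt
Abca1: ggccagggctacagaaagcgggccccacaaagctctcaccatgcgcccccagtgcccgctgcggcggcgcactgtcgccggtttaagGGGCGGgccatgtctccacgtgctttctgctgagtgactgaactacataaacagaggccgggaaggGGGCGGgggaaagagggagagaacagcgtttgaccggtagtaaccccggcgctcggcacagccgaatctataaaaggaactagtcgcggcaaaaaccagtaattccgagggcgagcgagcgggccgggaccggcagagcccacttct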

How the data were processed

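RNA sequencing of 8 libraries was used, grouped by their labels. By the submitters' processing notes, reads were aligned to mm10 with Subread and counted with featureCounts; versions, the strand setting and the handling of reads with several alignments are not given in the sources used here. The deposited values were planned for as RPKM, but the file held log2(RPKM + 1) + 0.0001, so the authors' log2 values were turned back into RPKM. Low values step by whole reads, which gave the reads of each gene and the library totals (15542732 to 25486791).

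The 12605 genes with a mean of at least 0.5 RPKM were tested as log2(RPKM + 0.1) by limma (version 3.58.1, in R 4.3.3), which estimated the 4 group means and moderated variances with a trend. The Benjamini-Hochberg adjustment ran over all of them. An exact permutation test of 2 libraries against 2 cannot go below a two-sided p of 0.333 and was not used. A response to stimulation was called when the adjusted p was under 0.01 and the change exceeded 2-fold, the Cd comparisons and the difference in response at an adjusted p under 0.05.

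Pathway genes came from 7 lists of 68 genes, and cell type markers from fixed lists. Besides the 8 genes, the called genes of the sterol synthesis and SREBP lists were named, and up to 2 called genes in each direction of each other list; some genes under this rule are not reported here. The 8 genes and the lists were chosen with earlier results of these data known. The alternatives tried were larger pseudocounts (0.5 and 1), another filter (none, or at least 1 RPKM on average), quantile normalization, median-of-ratios scaling, limma voom on the recovered reads, no trend, replicate blocks, only the libraries of a comparison, another call rule and each library left out in turn. Promoters were RefSeq windows of GRCm38.p6, and strands and exons came from GENCODE vM21. Python 3.11.15, numpy 2.4.6, pandas 2.3.3 and matplotlib 3.10.9 were used.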

Additional observations from a re-analysis of the deposited data

How the results depend on the processing

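For stimulation, the 8 genes kept their direction and their side of the threshold in 120 of 120 alternative fits in Ctr and in 120 of 120 in Cd, and the other genes named by the rule in 166 of 180 and 149 of 150. The count of called genes among the 8 was 4 in both exposures with a replicate block and with each library left out. Among the pathway genes the replicate block gave 18 in Ctr and 16 in Cd, and leaving out 1 library gave 16 to 20 in Ctr and 17 in Cd. At an adjusted p under 0.05 with no fold threshold, 8 of the 8 genes in Ctr and 7 in Cd were called, and 49 and 47 pathway genes. By that rule 36.9% of all genes tested were called higher and 27.8% lower in Ctr, and 36.5% and 29.4% in Cd. Both thresholds were then looser.

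For Cd in unstimulated cells, 0 of the 8 were called in the reported limma fit. Against this, 1 was called by limma voom (1.67% of all genes tested) and 2 had an unadjusted p under 0.05 (13.9% of all genes tested). Of the pathway genes there were 1 and 7 by these rules. For Cd in stimulated cells 1 pathway gene had an unadjusted p under 0.05, beside 3.28% of all genes tested. For the difference in response 2 of the 8 and 4 pathway genes did, beside 10.6% of all genes tested. With 1 library left out the limma count stayed at 0 in these comparisons.

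Changes of sign occurred where the log2 fold change was near 0, none of them called. For Cd in stimulated cells Srebf2 was at 0.01 under median-of-ratios scaling and 0.01 under quantile normalization, and Abca1 at −0.02 under quantile normalization. With 1 library left out, Cd in unstimulated cells ran from −0.05 to 0.12 for Sqle, −0.05 to 0.00 for Fdft1, −0.10 to 0.16 for Lss, −0.17 to 0.05 for Srebf1 and −0.19 to 0.05 for Srebf2. Cd in stimulated cells ran from −0.16 to 0.06 for Hmgcs1, −0.17 to 0.06 for Idi1, −0.02 to 0.07 for Fdft1, −0.03 to 0.02 for Srebf2 and −0.04 to 0.14 for Abca1. The difference in response ran from −0.16 to 0.01 for Sqle and −0.05 to 0.19 for Srebf2. The cause was not tested. A group left with 1 library is assumed to vary like the others.

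Libraries with the same number were not treated as pairs. Across 12605 genes, their deviations from the group mean correlated at 0.0635 between Ctr_Unstim and Ctr_Stim. The correlation was 0.00851 between Cd_Unstim and Cd_Stim. Between Ctr and Cd groups, which cannot share an animal, it ran from −0.112 to 0.0123. Depth limits the stimulated level of Abca1, with 66 to 104 reads a library, and the levels of Nr1h3, with 11 to 31 reads, and of Sult2b1, with 30 to 169 reads. Protein, sterol content and SREBP cleavage were not measured in these libraries, and RPKM is relative to all reads, so RNA per cell was not measured.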
